A study of Mus musculus with 12 samples.

Results

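The 10 genes described here encode cell surface molecules through which axons and glial cells hold on to and signal to each other: Cntn1, Cntn2, Cntnap1, Nfasc, Nrcam, L1cam, Ncam1, Cadm1, Cadm4 and Lingo1. All array features annotated to one of these symbols were taken, which gave 29 features of 41230 with a value on every array. Ncam1 had 8 features, Cntn1, Cntn2, Cntnap1, Nfasc, Nrcam and Cadm1 had 3 each, and L1cam, Cadm4 and Lingo1 had 1 each. The rule uses symbols and no measured value, but the list of genes was drawn up with earlier results of these data known. Features of a gene were averaged where 1 value is given for the gene.

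The cells were Oli-neu, an immortalized mouse line of oligodendroglia. They stably expressed PLP-EGFP, a green fluorescent transgene that contains PLP, the major myelin protein. In the first experiment RNA from cells kept 16 h in conditioned neuronal medium, taken from primary cultures enriched in neurons, was hybridised on 6 arrays against RNA from untreated parallel cultures. In the second, RNA from cells given Y27632 for 16 h, an inhibitor of ROCK, a kinase that acts on the actin skeleton, was set against untreated RNA on another 6 arrays. In each experiment the treated RNA carried the dye Cy3 on 3 arrays and Cy5 on the other 3. The labels speak of a neuron treatment and of Y27631, and in the submitters' design text neurons are present in both arms of the second experiment. The names of the paper's methods are used here. All groups are thus the same cell line with PLP-EGFP. No source used here gives the genotype of the neuronal cultures or says whether both experiments shared untreated RNA. The submitters call the arrays technical replicates and no source says that they came from separate cultures, so p-values cover no more than the variation among arrays, perhaps only technical.

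Each deposited value is a standardized log ratio whose standard deviation on every array is 1, and values are therefore given in these SD units, treated over untreated, and not as folds. The direction was taken from the study's own tables, whose up-regulated genes are negative as deposited. The ratios carry no levels, so the identity of the cells could not be checked by expression. Arrays of the same dye orientation correlated over all features with r from 0.859 to 0.89 for conditioned neuronal medium and from 0.731 to 0.809 for Y27632. Opposite orientations correlated with r from 0.249 to 0.296 and from -0.262 to -0.12. Among features at least 2 SD units from 0 in both orientations, the sign was the same in 510 of 581 for conditioned neuronal medium and in 144 of 395 for Y27632. The part of a feature's value that changed sign with the dye was alike in both experiments (r = 0.788 over 41230 features), while the means of the treatments correlated with r = 0.163, in both cases over features that are not independent. A dye term was kept in the main limma fits, so their p-values rest on the spread within a dye orientation, and the SDs printed also hold the difference between orientations. A feature or gene was called at an adjusted p under 0.05.

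At the node of Ranvier and the paranodes beside it, glial membrane is anchored to the axon. Contactin (Cntn1) and Caspr (Cntnap1) form a complex on the axon that meets the glial form of neurofascin (Nfasc), and Cntn2, also called TAG-1, takes part in the neighbouring juxtaparanodal complex on both the axon and the glial cell. Nrcam and L1cam are, like Nfasc, members of the L1 family, whose cytoplasmic tails bind ankyrins. Ncam1 is the neural cell adhesion molecule, which can carry polysialic acid. Cadm1 and Cadm4 are nectin-like molecules, also called SynCAM1 and SynCAM4, and Cadm4 is the main form on myelinating glia. Lingo1, a partner of the Nogo receptor, is known as a negative regulator of oligodendrocyte differentiation.

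The clearest changes in conditioned neuronal medium were those of Cntn1 and Cadm1. Cntn1 rose by 2.11 ± 0.28 SD units (mean ± SD, n = 6 arrays, adjusted p = 3.77e-07) and Cadm1 fell by 1.07 ± 0.51 (adjusted p = 2.38e-06). L1cam fell by 0.71 ± 0.23 (adjusted p = 1.75e-04). With Y27632 Nrcam rose by 0.93 ± 0.28 (adjusted p = 1.25e-04) and L1cam fell by 1.59 ± 1.13 (adjusted p = 2.49e-04). Cntn1, Nrcam and Cadm1 differed between the treatments by 1.30, -1.27 and -1.26 SD units, conditioned neuronal medium minus Y27632.

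**Figure D1:**
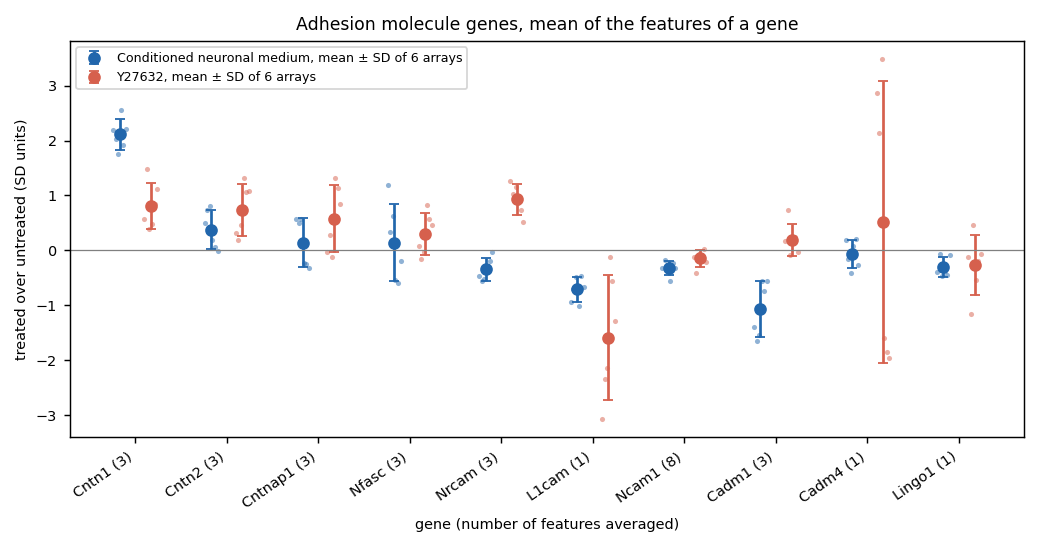
Each gene's value in SD units, treated over untreated, is plotted on the vertical axis against the gene, with the number of features averaged in parentheses. Small points are the 6 arrays, large points their mean and bars the SD; Cntn1 in conditioned neuronal medium lies between 1.76 and 2.56 on its 6 arrays, and the wide bar of Cadm4 with Y27632 spans arrays from -1.96 to 3.49.

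The promoters of Cntn1, Nrcam and L1cam are shown because these genes gave the largest rise in conditioned neuronal medium, the largest rise of a gene mean with Y27632 and the fall on every array of both experiments. The sequences are those of RefSeq on GRCm38.p6, from 250 bases before a transcription start to 50 after it, on the strand of the gene and at 1 annotated start each. Of the 10 genes, 7 had such a window; Cntnap1, Ncam1 and Cadm1 are named only. Capitals mark matches on either strand to the E-box CANNTG, the core motif of bHLH factors, the GC box GGGCGG, or CATTCC, a motif of TEAD factors, all chosen after the values were seen.
Cntn1 (chr15:92050915-92051214, plus strand): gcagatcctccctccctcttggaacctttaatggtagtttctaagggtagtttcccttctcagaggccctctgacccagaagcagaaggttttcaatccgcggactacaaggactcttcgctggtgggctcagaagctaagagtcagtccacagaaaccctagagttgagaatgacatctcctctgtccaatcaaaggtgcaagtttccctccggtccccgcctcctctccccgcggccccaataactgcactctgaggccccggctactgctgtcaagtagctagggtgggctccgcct
Nrcam (chr12:44328635-44328934, plus strand): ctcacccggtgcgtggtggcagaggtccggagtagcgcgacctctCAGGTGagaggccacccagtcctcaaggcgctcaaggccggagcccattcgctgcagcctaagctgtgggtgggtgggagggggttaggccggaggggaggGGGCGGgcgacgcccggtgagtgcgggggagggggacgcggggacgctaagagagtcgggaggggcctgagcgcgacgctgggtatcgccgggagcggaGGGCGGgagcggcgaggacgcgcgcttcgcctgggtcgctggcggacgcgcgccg
L1cam (chrX:73880741-73881040, minus strand): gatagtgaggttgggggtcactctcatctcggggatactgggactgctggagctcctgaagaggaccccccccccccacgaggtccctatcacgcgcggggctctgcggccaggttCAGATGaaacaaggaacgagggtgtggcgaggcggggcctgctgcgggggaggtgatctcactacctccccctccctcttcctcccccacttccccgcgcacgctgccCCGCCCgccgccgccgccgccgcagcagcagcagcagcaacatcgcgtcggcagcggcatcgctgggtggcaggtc
The Cntn1 window held none of these motifs and had a GC content of 55.3%, against a median of 52.7% over 32851 windows. The Nrcam window held 1 E-box and 2 GC boxes at 74.0% GC, and the L1cam window held 1 E-box and 1 GC box at 69.3% GC. Over all windows 72.3% held an E-box, 35.7% a GC box and 14.7% the TEAD motif, and none of these matches overlapped in the windows shown. The other windows of these genes differ, since further starts of Cntn1 held 1 E-box in one window and 1 TEAD motif in another. The matches are a description of letters and no binding was measured.

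The contactin and Caspr genes did not move as a group in conditioned neuronal medium, where Cntn1 rose on 2 of its 3 features. Its feature 1856 stood at 2.57, 2.20 and 1.87 SD units where the treated RNA was in Cy3 and at 2.81, 2.68 and 3.21 where it was in Cy5. Feature 35363 stood at 4.27, 4.25 and 3.64 in Cy3 and at 5.02, 3.03 and 3.35 in Cy5. Both features were thus far above 0 on every array and in both orientations. Their means were 2.56 ± 0.47 (adjusted p = 1.25e-07) and 3.93 ± 0.72 (adjusted p = 6.28e-07), and both stayed called without the dye term. The third, feature 37943, ran from -0.37 to 0.09 with a mean of -0.15 ± 0.17 and did not pass (adjusted p = 0.141). The features of Cntn1 thus gave different answers, and they are annotated to different transcript records (NM_007727, AK076273 and BC055360). On the gene mean the exact sign-flip permutation test over 6 arrays gave p = 0.03125, 2-sided, the smallest that 64 sign assignments can give.

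Cntn2 stood at 0.38 ± 0.35 in conditioned neuronal medium (adjusted p = 0.00149), and its 3 features share 1 transcript record. Feature 43157 ran from 0.31 to 0.67 on the 6 arrays with a mean of 0.53 ± 0.16 (adjusted p = 3.87e-04). Feature 38778 stood at 1.02, 1.93 and 1.94 in Cy3 and at 0.28, -0.25 and -0.46 in Cy5, so its call (mean 0.74, adjusted p = 0.00149) rested on 1 orientation. Feature 9899 stayed between -0.32 and 0.17 (adjusted p = 0.182). With the median of the features in place of the mean Cntn2 stood at 0.19 and was not called (adjusted p = 0.104), nor was it without the dye term (adjusted p = 0.083).

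Cntnap1 did not pass as a gene in conditioned neuronal medium (0.14 ± 0.45, adjusted p = 0.0827). Its feature 7732 was above 0 on 6 arrays, from 1.43 to 1.72 in Cy3 and from 0.25 to 0.65 in Cy5, with a mean of 0.98 ± 0.65 (adjusted p = 1.23e-05). Feature 35289, of the same transcript record, had a mean of -0.60 ± 0.62 (adjusted p = 1.92e-04), from -1.25 to -1.08 in Cy5 and from -0.20 to 0.14 in Cy3. Features of 1 transcript were thus called in opposite directions with the dye term. Without it feature 7732 stayed called (adjusted p = 0.019) and feature 35289 did not (adjusted p = 0.0923). Feature 22209 had a mean of 0.02 (adjusted p = 0.846).

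With Y27632 Cntn1, Cntn2 and Cntnap1 were called higher on their gene means. In the fits with a dye term Cntn1 feature 1856 and Cntn2 feature 38778 were called higher in both experiments, and Cntnap1 feature 22209 with Y27632 alone. Without that term Cntn2 feature 38778 was called in neither experiment (adjusted p = 0.177 in conditioned neuronal medium). Cntn1 stood at 0.81 ± 0.42 (adjusted p = 0.00413), above 0 on 6 arrays and at 0.81 in each orientation. Below the gene mean the orientations parted: feature 1856 stood at 0.03 in Cy3 and 1.92 in Cy5, and feature 37943 at 1.72 in Cy3 and -0.18 in Cy5. Neither feature was called without the dye term (adjusted p = 0.156 and 0.271), while the gene mean was (adjusted p = 0.0242). Feature 35363 ran from -0.89 to 2.16 and was not called (mean 0.68, adjusted p = 0.188), but without array 3 its mean was 1.07 and it was called (adjusted p = 0.0246).

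Cntn2 feature 38778 stood with Y27632 at 4.15, 3.47 and 3.56 SD units in Cy3 and at 0.68, 0.26 and 0.41 in Cy5. All 6 arrays were above 0, with the orientations far apart. Its mean of 2.09 ± 1.82 (adjusted p = 1.22e-05) was the only one of the 29 features at 2 SD units or more with Y27632. The call was lost without the dye term (adjusted p = 0.0735), and the mean was 1.99 without array 4. The other features of Cntn2 stood at 0.01 and 0.11 and were not called, so the gene mean of 0.74 ± 0.47 (adjusted p = 3.43e-04) came from feature 38778, and the median of the features stood at 0.14 (adjusted p = 0.259).

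Cntnap1 feature 22209 stood with Y27632 at 1.94, 1.98 and 1.92 in Cy3 and at 0.73, 1.52 and 1.03 in Cy5. It was well above 0 on every array, with a mean of 1.52 ± 0.53 (adjusted p = 4.3e-05), and stayed called without the dye term (adjusted p = 0.00587). Its annotation is a sequence tag, CD775576, and not the transcript record of the other features. Those stood at 0.26 (adjusted p = 0.212) and -0.06 (adjusted p = 0.78), and the gene mean of 0.57 ± 0.61 (adjusted p = 0.00263) was no longer called with the median of the features (0.39, adjusted p = 0.058) or without the dye term (adjusted p = 0.157).

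**Figure D2:**
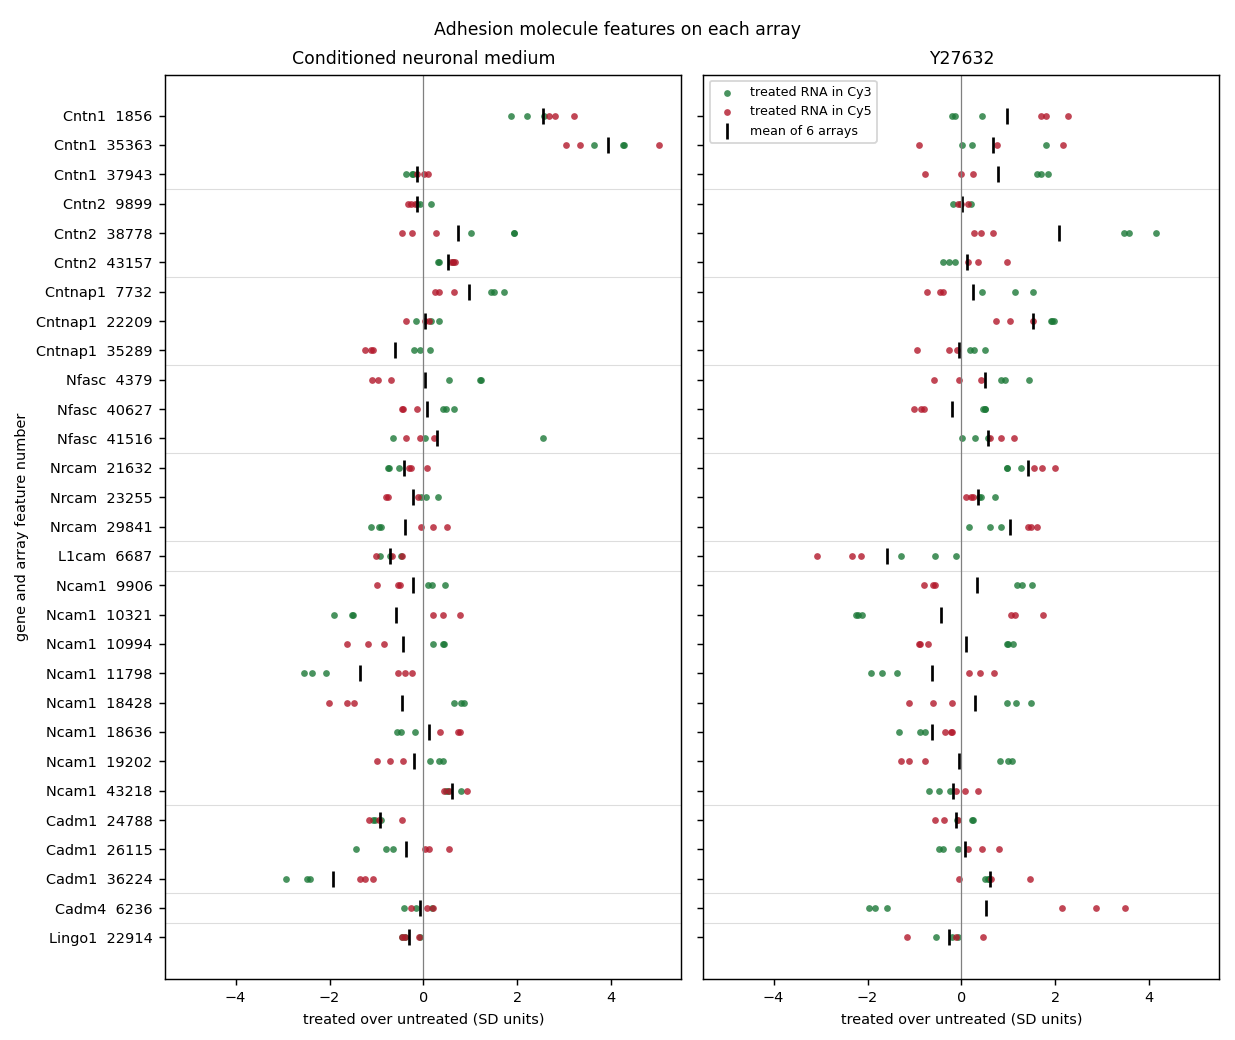
Values of the 29 features in SD units, treated over untreated, on each of the 6 arrays of conditioned neuronal medium (left) and of Y27632 (right). Green and red points mark the dye of the treated RNA and black ticks the mean of 6 arrays; the first pair of Cntn1 features stands between 1.87 and 5.02 in conditioned neuronal medium, while in most Ncam1 features the colours lie on opposite sides of 0.

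Among the L1 family, Nfasc did not pass in conditioned neuronal medium, with a gene mean of 0.14 ± 0.71 (adjusted p = 0.303) and orientation means of 0.72 in Cy3 and -0.44 in Cy5. None of its features was called there. Feature 41516 held 1 array far from the others, at 2.54 against a range of -0.64 to 0.22. With Y27632 that feature ran from 0.02 to 1.13 and was called (0.57 ± 0.39, adjusted p = 0.00579), and feature 4379 was called at 0.50 ± 0.74 (adjusted p = 0.0306) although its Cy5 mean was -0.08. Feature 40627 stood with Y27632 at -0.20, with 0.50 in Cy3 and -0.89 in Cy5, and was not called (adjusted p = 0.15). The gene mean of 0.29 ± 0.39 (adjusted p = 0.0308) was lost on leaving out array 1, 3, 4 or 5 (0.24 to 0.30, adjusted p from 0.061 to 0.102), and feature 4379 on leaving out the same arrays. With the median of the features Nfasc was not called (0.23, adjusted p = 0.201). No Nfasc call with Y27632 held without the dye term (adjusted p from 0.088 to 0.322).

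Nrcam moved in opposite directions in the experiments. With Y27632 feature 21632 stood at 1.28, 0.98 and 0.96 in Cy3 and at 1.99, 1.56 and 1.73 in Cy5. Feature 29841 stood at 0.60, 0.85 and 0.17 in Cy3 and at 1.62, 1.43 and 1.49 in Cy5. Both were above 0 on 6 arrays, with means of 1.42 ± 0.42 (adjusted p = 3.48e-05) and 1.03 ± 0.58 (adjusted p = 2.55e-04), and both stayed called without the dye term. Feature 23255 was lower, from 0.11 to 0.71 (mean 0.35, adjusted p = 0.0278), and was not called on leaving out any array but array 2 (adjusted p from 0.052 to 0.094).
In conditioned neuronal medium features 21632 and 29841 had means of -0.41 ± 0.32 (adjusted p = 0.00262) and -0.38 ± 0.69 (adjusted p = 0.00576), the latter with orientation means of -0.99 and 0.22. Neither was called without the dye term (adjusted p = 0.068 and 0.298). Feature 23255 stood at -0.23 (adjusted p = 0.0985), or -0.34 and called without array 6 (adjusted p = 0.0166). The gene mean of -0.34 ± 0.21 was below 0 on 6 arrays, from -0.56 to -0.03 (adjusted p = 0.00174, or 0.0473 without the dye term).

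L1cam, with 1 feature, was below 0 on all 12 arrays. In conditioned neuronal medium it stood at -0.93, -0.71 and -0.48 in Cy3 and at -1.02, -0.46 and -0.67 in Cy5, with a mean of -0.71 in each orientation. With Y27632 it stood at -0.11, -0.56 and -1.29 in Cy3 and at -3.07, -2.34 and -2.15 in Cy5. The orientations overlapped in the first experiment and not in the second. Both falls stayed called without the dye term (adjusted p = 0.00467 and 0.0432 for L1cam feature 6687), and the exact sign-flip permutation p was 0.03125 in each.

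Most Ncam1 features lay on opposite sides of 0 in the orientations. In conditioned neuronal medium 6 of its 8 features had orientation means of opposite sign, among them features 10321 (-1.64 in Cy3 and 0.47 in Cy5) and 18428 (0.77 and -1.70). Feature 11798 was below 0 on 6 arrays, at -2.54, -2.08 and -2.37 in Cy3 and at -0.54, -0.39 and -0.24 in Cy5 (mean -1.36 ± 1.08, adjusted p = 1.7e-06). Feature 43218 was above 0 on 6 arrays, from 0.44 to 0.93 (mean 0.62 ± 0.20, adjusted p = 3.64e-04). These features are annotated to different transcript records of the gene (NM_010875 and X15052) and were called in opposite directions, both also without the dye term. Feature 10994, also of X15052, was called lower (mean -0.43, adjusted p = 0.00677), at 0.36 in Cy3 and -1.22 in Cy5. Whether the direction went with the record was not tested. Feature 19202, of X15052 too, was not called (mean -0.20, adjusted p = 0.0899). Features 10321, 10994 and 18428 were called lower on orientation means of opposite sign, and none of them without the dye term.
The gene mean in conditioned neuronal medium was -0.32 ± 0.13 (adjusted p = 0.0038), from -0.55 to -0.18, and the median of the features was -0.13 and was not called (adjusted p = 0.177). With Y27632 the gene mean was -0.15 ± 0.15 (adjusted p = 0.222). There feature 18636 was below 0 on 6 arrays, from -1.32 to -0.19 (mean -0.62 ± 0.45, adjusted p = 0.00267), without a call when the dye term was dropped (adjusted p = 0.087). Features 9906 (mean 0.34), 10321 (mean -0.44) and 11798 (mean -0.62) were called with Y27632 on orientation means of opposite sign, which 7 of its 8 features had. Feature 9906 lost its call on leaving out any of 5 arrays and feature 10321 on leaving out any of 4.

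Of the nectin-like genes, Cadm1 fell in conditioned neuronal medium. Feature 36224 stood at -2.49, -2.41 and -2.93 in Cy3 and at -1.08, -1.36 and -1.24 in Cy5. Feature 24788 stood at -1.03, -1.08 and -0.89 in Cy3 and at -1.15, -0.95 and -0.46 in Cy5. Both were below 0 on every array. Their means were -1.92 ± 0.78 (adjusted p = 2.73e-07) and -0.93 ± 0.25 (adjusted p = 4.27e-05), both called without the dye term as well. Feature 26115, of the same transcript record as 36224 (NM_207675), had orientation means of -0.96 and 0.23 and a mean of -0.36 (adjusted p = 0.0264), which was lost on leaving out array 2, 5 or 6 (adjusted p from 0.072 to 0.087). With Y27632 the gene stood at 0.20 ± 0.29 and did not pass (adjusted p = 0.225), and feature 36224, at 0.61 ± 0.49 (adjusted p = 0.0254), lost its call on leaving out array 1, 4, 5 or 6 (0.61 to 0.63, adjusted p from 0.058 to 0.069).

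Cadm4 stood at -0.06 ± 0.25 in conditioned neuronal medium (adjusted p = 0.634 at its feature). With Y27632 its feature stood at -1.59, -1.84 and -1.96 in Cy3 and at 2.87, 2.14 and 3.49 in Cy5. The orientations lay on opposite sides of 0 with none of the 6 arrays near their mean of 0.52. The call (adjusted p = 0.0409) was lost on leaving out array 1, 3, 4, 5 or 6 (0.35 to 0.56, adjusted p from 0.069 to 0.12) and without the dye term (adjusted p = 0.801), and the exact sign-flip permutation p was 0.625 over 6 arrays. No direction is given for Cadm4 with Y27632.

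Lingo1 ran from -0.47 to -0.07 in conditioned neuronal medium, below 0 on 6 arrays with a mean of -0.31 ± 0.18 (adjusted p = 0.0166 at its feature) and the same mean of -0.31 in each orientation. The call of the feature was lost on leaving out array 1, 3 or 5 (-0.29 to -0.27, adjusted p from 0.054 to 0.057) and without the dye term (adjusted p = 0.084). In the limma fit over genes, which holds the same values, the call (adjusted p = 0.0102) stayed on leaving out any array (adjusted p up to 0.0371). Without the dye term it was lost there too (adjusted p = 0.0562). With Y27632 Lingo1 ran from -1.16 to 0.46 with a mean of -0.27 ± 0.54 (adjusted p = 0.316 at its feature).

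The counts of calls were read against all features. In conditioned neuronal medium 6 of the 29 features were called higher, 20.7% against 27.8% of all features, and 12 lower, 41.4% against 32.7%. At 2 SD units or more 2 features were higher, both of Cntn1 (background 1.33%), and 0 lower (background 0.791%), against 12 called lower at any size. At 1 SD unit or more 2 were higher (background 6.83%) and 2 lower (background 5.57%), the latter of Cadm1 and Ncam1. Features both called and of 1 sign on all 6 arrays numbered 10, which is 34.5% of the 29 against 30.5% of all features. For Y27632 12 features were called higher, 41.4% against 19.2%, and 4 lower, 13.8% against 17.6%. The count of 12 fell to 7 on leaving out array 1, 4 or 5 and to 3 without the dye term. The shares of all features or genes called under such alternatives were not counted. At 2 SD units or more 1 feature, of Cntn2, was higher (background 0.395%) and 0 lower (background 0.514%), and at 1 SD unit or more 4 were higher (background 3.94%) and 1 lower (background 4.13%). Features both called and of 1 sign on all 6 arrays numbered 8, which is 27.6% of the 29 against 17.9% of all features. Such shares are taken over called and uncalled features alike, so they also rise with the share called.
At the gene level 2 of 10 were higher (background 27.6%) and 5 lower (background 36.7%) in conditioned neuronal medium, and 6 higher (background 20.5%) and 1 lower (background 19.5%) with Y27632. The 6 include Cadm4, for which no direction is given with Y27632. Without the dye term, and also with the median of the features, 3 genes were higher with Y27632 and 1 in conditioned neuronal medium. Called genes with 1 sign on all 6 arrays numbered 6 (background 33.9%) and 4 (background 19.5%). The median of the 10 genes was -0.18 and 0.40 SD units, against -0.08 and -0.01 over 19087 genes. Orientation means of opposite sign were found in 15 of the 29 features in conditioned neuronal medium (51.7%, background 47.5%) and in 17 with Y27632 (58.6%, background 58.5%), shares close to those of all features.

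**Figure D3:**
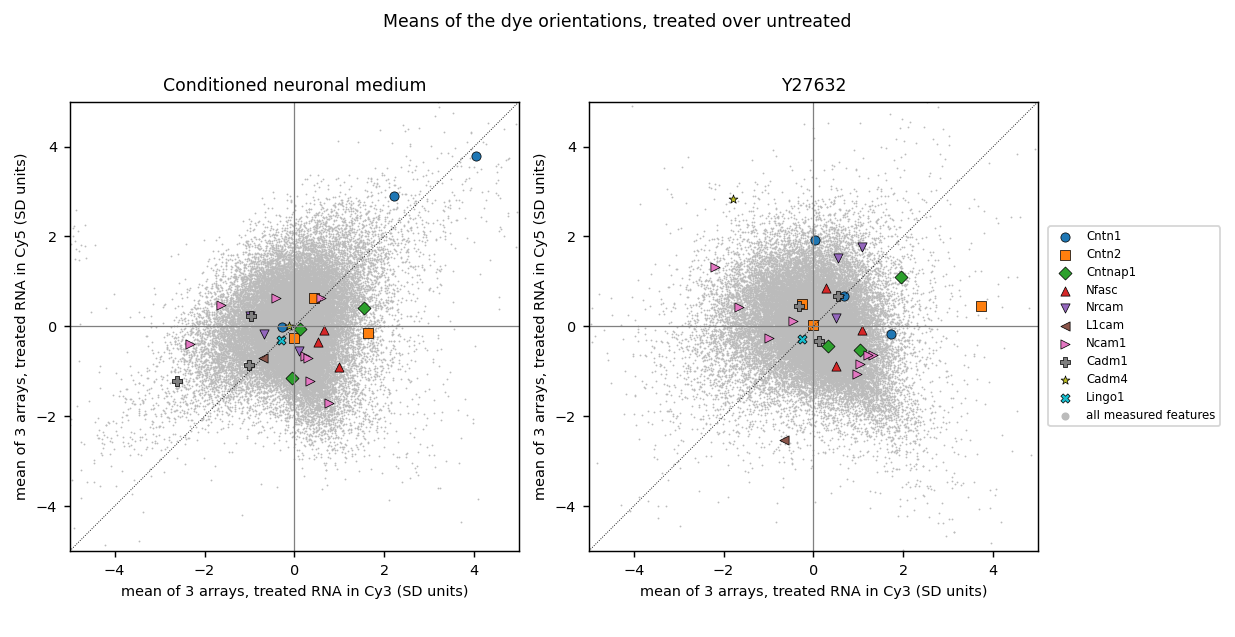
Mean over 3 arrays that held the treated RNA in Cy5 (vertical) against that of the 3 arrays with it in Cy3 (horizontal), in SD units, treated over untreated, for 41230 features in grey and the 29 adhesion molecule features in colour, with the diagonal dotted. The axes end at 5 SD units and leave out 149 grey features on the left and 66 on the right; 2 Cntn1 features lie near the diagonal in conditioned neuronal medium, and Cadm4 with Y27632 lies far from it.

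Both experiments were then set against each other in 1 fit over 12 arrays. Of the 29 features 7 were higher in conditioned neuronal medium than with Y27632 (background 22.1%) and 14 lower (background 24.2%). Of these, 3 and 5 were also called without the dye term, a setting whose share over all features was not counted. Cntn1 features 35363 and 1856 were higher by 3.25 ± 0.49 (SE, adjusted p = 1.31e-04) and 1.58 ± 0.18 (adjusted p = 9.96e-06), whereas feature 37943 was lower by 0.92 ± 0.17 (difference -0.92, adjusted p = 5.36e-04). Cadm1 feature 36224 differed by -2.53 ± 0.21 (adjusted p = 7.06e-07) and feature 24788 by -0.82 ± 0.15 (adjusted p = 5.78e-04). For Nrcam the differences were -1.83 ± 0.13 (adjusted p = 1.86e-07), -1.41 ± 0.15 (adjusted p = 5.2e-06) and -0.57 ± 0.15 (adjusted p = 0.00624), the same direction in its 3 features. The smallest of these, of feature 23255, was not called without the dye term (adjusted p = 0.0994). Nor was that of Cntn1 feature 37943 (adjusted p = 0.168).
Cntnap1 feature 22209 differed by -1.49 ± 0.16 (adjusted p = 6.28e-06) and Cntn2 feature 38778 by -1.35 ± 0.20 (adjusted p = 1.26e-04), the latter not called without the dye term (adjusted p = 0.278). L1cam differed by 0.88 ± 0.22 (adjusted p = 0.0051), and this too was not called without the dye term (adjusted p = 0.206). Lingo1 differed by -0.04 ± 0.23 (adjusted p = 0.91) and none of the 3 Nfasc features was called, which does not show that the treatments acted alike on them. At the gene level 2 of 10 were higher (background 22.5%) and 5 lower (background 27.6%). An SD unit need not be the same size in both experiments, since each array was scaled on its own.

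**Figure D4:**
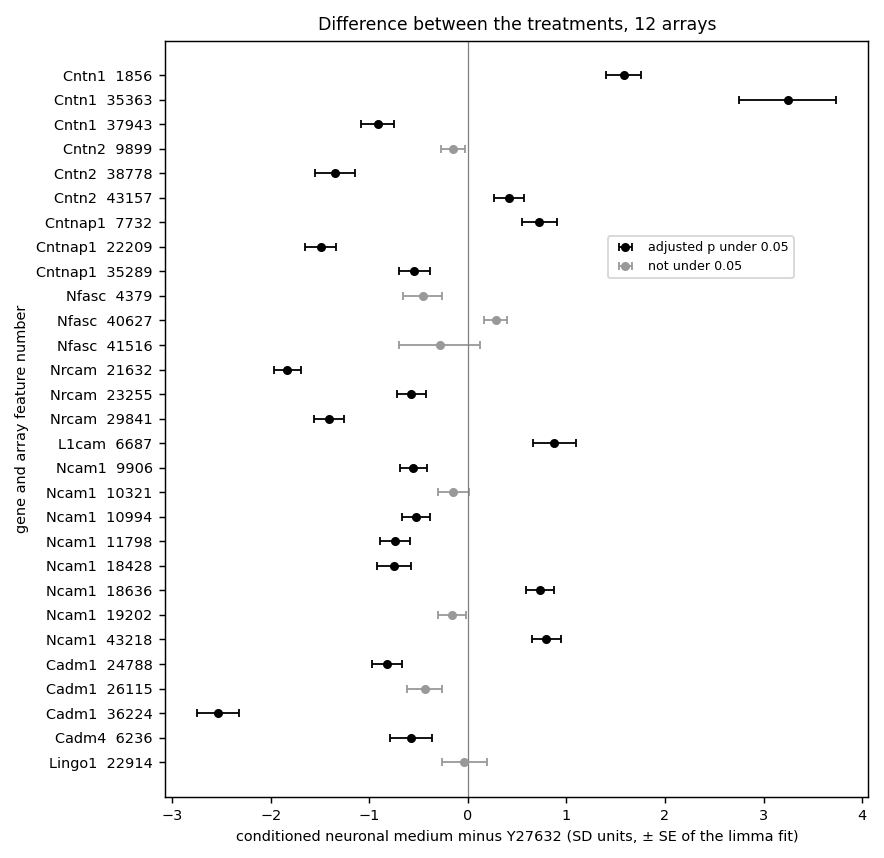
The difference between the treatments for the 29 features, conditioned neuronal medium minus Y27632, in SD units on the horizontal axis, with bars of 1 SE of the limma fit on 12 arrays. Black points had an adjusted p under 0.05; Cntn1 feature 35363 lies farthest to the right at 3.25 and Cadm1 feature 36224 farthest to the left at -2.53.

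Relatives and partners of these genes were listed by role, 61 in all, of which 55 were measured. In conditioned neuronal medium 16 were called higher (background 27.6%) and 19 lower (background 36.7%). With Y27632 13 were called higher (background 20.5%) and 12 lower (background 19.5%). All 4 shares were close to those of all genes, and the medians were -0.06 and -0.09 SD units. The same backgrounds apply to the counts of each list that follows. Among 19 genes of the contactin and Caspr family and its partners, 5 were higher and 9 lower in conditioned neuronal medium, against 4 and 2 with Y27632. Tnr, the extracellular matrix protein tenascin-R and a ligand of contactin, rose by 5.29 ± 0.55 in conditioned neuronal medium (4.61 to 5.92 on 6 arrays, adjusted p = 7.01e-08). Ptprz1, a receptor phosphatase that binds contactin, rose by 1.45 ± 0.36 (adjusted p = 3.1e-07). Lgi4, a secreted ligand of Adam22, moved in opposite directions, at -2.63 ± 0.40 in conditioned neuronal medium (-3.19 to -2.20, adjusted p = 2.3e-08) and at 2.67 ± 0.24 with Y27632 (2.28 to 2.96, adjusted p = 4.84e-06). Epb41l3, the protein 4.1B that links Caspr to the membrane skeleton, fell with Y27632 by 1.98 ± 0.33 (mean -1.98, adjusted p = 1.57e-05).

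Of 9 measured genes of the L1 relative and membrane skeleton list, 0 were higher and 2 lower in conditioned neuronal medium, and 2 were called in each direction with Y27632. Ezr, the membrane to actin linker ezrin, had a mean of -2.68 ± 0.92 in conditioned neuronal medium (adjusted p = 2.53e-07). Chl1, the close homolog of L1, rose with Y27632 by 1.51 ± 0.33 (adjusted p = 2.56e-05), while Msn, moesin, fell there (-1.66 ± 0.78, adjusted p = 1.6e-05). Of the 6 genes around Ncam1, 3 were higher and 1 lower in conditioned neuronal medium, against 2 and 3 with Y27632, where Gfra1, a GDNF receptor, stood at -1.30 ± 0.78 (adjusted p = 9.87e-05). Of 8 measured nectin and scaffold genes 3 and 3 were called in conditioned neuronal medium, against 2 and 1 with Y27632, none of them at 1 SD unit or more.
The 13 measured genes of the Lingo relatives and the Nogo receptor complex were called higher and lower in 5 and 4 cases in conditioned neuronal medium and in 3 and 4 with Y27632. Ngfr, the neurotrophin receptor p75 that partners with Lingo1, fell in both, at -2.70 ± 0.14 (-2.83 to -2.46, adjusted p = 1.57e-08) and -1.35 ± 0.35 (adjusted p = 3.39e-05). Omg, the oligodendrocyte myelin glycoprotein and a ligand of the Nogo receptor, rose by 1.46 ± 0.55 in conditioned neuronal medium (adjusted p = 1.27e-05), and Lingo3 stood at -1.26 ± 0.68 with Y27632 (adjusted p = 6.5e-05). Tnr and Ngfr are among the genes that the study listed from these arrays, so their direction is not independent evidence.

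Several of the 10 genes are also known from neurons, and markers of other cells moved with the treatments. Of 15 neuronal marker genes 9 were called higher and 3 lower in conditioned neuronal medium (median 0.47, from -0.82 for Map2 to 3.08 for Nefl, array medians from -0.08 to 0.83) and 2 and 6 with Y27632 (median -0.25, Nefl -2.58, array medians from -0.74 to 0.17). Of 8 astrocyte markers 2 and 4 were called in conditioned neuronal medium (median -0.16, from -2.94 for Gfap to 1.32 for Gja1) and 5 and 0 with Y27632 (median 0.37, from -0.22 for Aqp4 to 1.92 for Gfap). Of 6 measured microglial markers 2 and 0 were called in conditioned neuronal medium (median 0.14), against 0 and 2 with Y27632 (median -0.04). Of 9 measured markers of the oligodendrocyte lineage, 7 were called higher and 1 lower with either treatment (medians 0.50 and 0.65). They ran from -1.19 for Mbp to 5.44 for Olig1 in conditioned neuronal medium and from -0.44 for Mog to 2.07 for Cnp with Y27632. Nefl, Olig1 and Cnp are also among the genes that the study listed from these arrays. The backgrounds of these counts are those of all genes given above. The part of these shifts in the values of the adhesion molecule genes was not tested, and ratios do not show which markers are at 0.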

How the data were processed

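Gene expression was measured on 12 Agilent 2-colour whole genome mouse arrays, 6 for each treatment with a dye swap. The authors amplified the RNA by PCR, extracted intensities with the software named in the methods, normalized them by loess and replaced saturated features with low gain data. The deposited score of a feature, as the authors left it, is a standardized log ratio with a standard deviation of 1 on every array. The base of the logarithm and the centring are not given in the sources used here, and as deposited the array medians lay between -0.101 and 0.1012. All signs were reversed to treated over untreated. Of 44290 features, 3060 had no value on any array and were left out. Gene names came from the platform annotation, updated through the current gene table for 31906 of 32089 listed probes. A single gene was named for 31700 measured features, several for 47 and none for 9483, which gave 19087 genes.

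Each treatment was modelled with limma (version 3.58.1, R 4.3.3) by an intercept and a dye term, and adjusted p-values, except where an alternative is named, are from its moderated fit with the Benjamini-Hochberg adjustment over 41230 features or 19087 genes. The methods' own model was a fixed effects model with the same adjustment. The design had assumed log ratios, and the same test was kept for the standardized ones. The difference between treatments was fitted on 12 arrays with an intercept and a dye term for each treatment. Single gene means were also tested by exact sign-flip permutation over 6 arrays, 2-sided. The fits were tested on simulated data.

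All 10 genes are named with each feature, and of each related list up to 3 genes per treatment with the smallest adjusted p among those with a mean of at least 1 SD unit. The members and lists were chosen with earlier results of these data known. Alternatives were the centring, scaling and normalization of the arrays, the dye term, the variance model, the features tested, the summary of a gene's features, single dye orientations, and leaving out each array. Precision is limited by the number of arrays, and how far each feature lay above background is unknown.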

Additional observations from a re-analysis of the deposited data

Results flagged for a closer look

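Of 78 sets of 6 arrays tested for a single far value, 3 held one. The cutoff gives about 1 in 20 by chance for independent sets of 6 values from 1 distribution. That rate does not carry over here, since dye orientations often lay apart and gene means overlap their features. Nfasc feature 41516 stood at 2.54 SD units on array 1 of conditioned neuronal medium, Cadm1 feature 24788 at -0.46 on array 6 and the Ncam1 gene mean at -0.55 on the farthest of its arrays. Without array 1, Nfasc feature 41516 had a mean of -0.19 and differed between the treatments by -0.76 (adjusted p = 0.00621).

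The response to conditioned neuronal medium and that to Y27632 differed, by the limma contrast of both fits, in 7 of the 10 genes, of which 2 were higher (background 22.5%) and 5 lower (background 27.6%). Conditioned neuronal medium minus Y27632, the gene means differed by 1.30 for Cntn1, -0.36 for Cntn2, -0.44 for Cntnap1, -1.27 for Nrcam, 0.88 for L1cam, -1.26 for Cadm1 and -0.58 for Cadm4. The last was lost on leaving out any of 8 of the 12 arrays (feature difference from -0.60 to -0.41, adjusted p from 0.0571 to 0.0898). The Cadm4 feature difference was also not called without the dye term (adjusted p = 0.751). The means of Cntn1, Cntn2 and Cntnap1 averaged features that differed in opposite directions. Gene differences were not fitted without the dye term.

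Single features that differed were those of Cntn1 at 1.58 (1856), 3.25 (35363) and -0.92 (37943), of Cntn2 at -1.35 (38778) and 0.42 (43157), and of Cntnap1 at 0.72 (7732), -1.49 (22209) and -0.54 (35289). For Cntn2 feature 43157 the call was lost on leaving out any of 9 arrays (adjusted p from 0.0506 to 0.089). Features of Nrcam differed by -1.83 (21632), -0.57 (23255) and -1.41 (29841), and the features of L1cam and Cadm4 by 0.88 and -0.58. Ncam1 features differed by -0.55 (9906), -0.53 (10994), -0.74 (11798), -0.75 (18428), 0.73 (18636) and 0.80 (43218), and Cadm1 features by -0.82 (24788) and -2.53 (36224). Of these 21 features 7 were higher (background 22.1%) and 14 lower (background 24.2%). Without the dye term 8 were also called, and the share of all features called in that setting was not counted.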

How the results depend on the processing

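Without the dye term, calls of the 29 features with Y27632 went from 12 to 3 higher and from 4 to 1 lower, with 0 at 2 SD units, those in conditioned neuronal medium from 12 to 4 lower, and those of the difference to 3 higher and 5 lower. Genes called higher then numbered 3 with Y27632 and 1 in conditioned neuronal medium, and counts of 3 and 1 were also found with the median of the features in place of the mean. With the feature of smallest adjusted p, 2 genes were lower with Y27632. At 1 SD unit in place of 2, 4 features were higher and 1 lower with Y27632 and 2 lower in conditioned neuronal medium, and 2 were lower by 2 units there with arrays scaled by the median absolute deviation. The arrays with the treated RNA in Cy3 alone gave 10 calls higher in conditioned neuronal medium, 2 lower by 2 units there and 1 with Y27632, and those in Cy5 alone gave 7 higher and 1 lower by 2 units with Y27632. Leaving out each array gave 7 to 12 higher calls with Y27632, 7 without array 1, 4 or 5, and 0 to 1 at 2 units. Counts of calls stayed within 1.5 times under centring, quantile normalization, unmoderated or trended variances and the restriction to named features. Except for the threshold of 1 SD unit, the shares of all features or genes called under these alternatives were not counted. The counts therefore have no background beside them, and calls of all features may have changed as well.

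The sign of these means turned in 1 orientation. In Cy3 alone they were, in conditioned neuronal medium, Ncam1 0.36 (feature 10994), 0.77 (feature 18428), -0.41 (feature 18636), 0.30 (feature 19202) and 0.25 (feature 9906) and Nrcam 0.10 (feature 23255), and with Y27632 Cadm1 0.13 (feature 24788) and -0.31 (feature 26115), Cadm4 -1.80 (feature 6236), Cntn2 -0.26 (feature 43157) and -0.00150 (feature 9899), Cntnap1 0.32 (feature 35289), Ncam1 0.96 (feature 19202) and Nfasc 0.50 (feature 40627). In Cy5 alone they were, in conditioned neuronal medium, Cadm1 0.23 (feature 26115), Cadm4 0.00480 (feature 6236), Cntn2 -0.14 (feature 38778), Cntnap1 -0.0698 (feature 22209), Ncam1 0.47 (feature 10321), Nfasc -0.34 (feature 40627), -0.0732 (feature 41516) and -0.91 (feature 4379) and Nrcam 0.22 (feature 29841), and with Y27632 Cntn1 -0.18 (feature 37943), Cntnap1 -0.52 (feature 7732), Ncam1 1.32 (feature 10321), -0.83 (feature 10994), 0.42 (feature 11798), -0.64 (feature 18428), 0.11 (feature 43218) and -0.65 (feature 9906) and Nfasc -0.0765 (feature 4379). Leaving out 1 array turned the sign of values near 0, none of them called with all arrays, with ranges in conditioned neuronal medium of Cadm4 feature 6236 -0.14 to 0.00850, Cntnap1 feature 22209 -0.0294 to 0.10, Nfasc feature 41516 -0.19 to 0.61 and Nfasc feature 4379 -0.0155 to 0.15, and with Y27632 of Cadm1 feature 26115 -0.00990 to 0.15, Cntn2 feature 43157 -0.00540 to 0.20, Cntn2 feature 9899 -0.0389 to 0.0531, Cntnap1 feature 35289 -0.14 to 0.0704 and Ncam1 feature 19202 -0.12 to 0.0101. In the difference between treatments the ranges were Lingo1 feature 22914 -0.26 to 0.15 and Nfasc feature 41516 -0.76 to 0.0356. The causes were not tested.

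The labels number the arrays of both experiments from 1 to 6. Same-numbered arrays did not deviate together, since the correlation of their deviations lay between -0.638 and -0.58 about the treatment mean, where their dyes were opposite, and between -0.048 and 0.084 about the orientation mean. The numbers were taken as names only, and a replicate block on the difference gave 7 calls higher and 14 lower, as without it, with no feature changing its call.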
